A study of Mus musculus with 30 samples.

Results

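The deletions of Xbp1 and Casp8 in the mouse colon were crossed as a 2 by 2 factorial, and each gene was tested for a departure from additive effects on the log2 scale. The members were the 20 libraries, of 30 in the series, that belong to the 4 genotypes of that factorial, with 1 library per mouse and 5 mice per genotype. The genotypes were XBP1IEC-KO;Casp8IEC-KO, here the double knockout, Casp8IEC-KO, here the Casp8 knockout, XBP1IEC-KO, here the Xbp1 knockout, and WT. The other 10 libraries came from triple knockouts that lacked TNFR1 in the same cells, or MLKL, as well. Total RNA of whole colon was read with 3′ tags, sequencing reads from the end of each transcript. By the labels the deletions lie in intestinal epithelial cells (IEC), while the RNA also came from the muscle, immune, nerve and vessel cells of the colon wall. The promoter that drove the recombinase, the deleted exons, the age and the sex of the mice are not stated in the sources used here. In such bulk RNA fewer cells of a type and less RNA per cell cannot be told apart.

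XBP1 is a transcription factor made active by splicing of its own messenger RNA when unfolded proteins gather in the endoplasmic reticulum (ER), and it raises the folding and export capacity of secretory cells such as goblet cells. Caspase-8 starts apoptosis below death receptors such as TNFR1 and holds back necroptosis, a lytic death carried out by RIPK3 and MLKL. In the intestinal epithelium both are known as guards against inflammation. The interaction was the double knockout minus the Casp8 knockout, minus the same difference between the Xbp1 knockout and WT. A value of 0 means that Xbp1 loss changed a gene by the same fold with and without Casp8. A positive value means that the double knockout stood above the level that the fold changes of the single knockouts give together, and a negative value that it stood below.

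The targeted genes were read first. Casp8 tags stood at 35.6, 22, 32.5, 46.2 and 43.3 CPM (gene reads scaled by the size of the library) in the double knockout libraries 1 to 5 and at 34.8, 31, 34.1, 27 and 24.7 in the Casp8 knockout. The Xbp1 knockout held 50.9, 21.1, 61.7, 45 and 66.8 CPM, against 51.5, 52.4, 52.4, 58.7 and 52.8 in WT. Every double and Casp8 knockout library lay below every WT library. The Xbp1 knockout value of 21.1 CPM, from 91 reads, was lower than in all 5 Casp8 knockout libraries, which goes against the genotype that its library carries by label. It is named below as the library labelled XBP1IEC-KO replicate 2. Xbp1 tags stood at 106, 97.4, 108, 140 and 70.4 CPM in the double knockout, at 86.9, 89.9, 92.5, 149 and 76.2 in the Casp8 knockout, at 54.8, 54, 52.6, 51.1 and 65.2 in the Xbp1 knockout, against 100, 75.4, 94.9, 60.3 and 52.8 in WT. The Xbp1 knockout overlapped WT, and the double knockout lay above the Xbp1 knockout in every library. Tags at the 3′ end can lie outside the deleted part and check nothing about the Xbp1 deletion. Neither gene had a called interaction (Casp8 0.37 ± 0.324, adjusted p = 0.582; Xbp1 0.54 ± 0.285, adjusted p = 0.310, edgeR).

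The 20 libraries held 3516792.6 to 5823059.7 reads each, so 1 read was worth about 0.233 CPM. The share of mitochondrially encoded reads was 15.9 ± 3.34% in the double knockout, 18 ± 0.961% in the Casp8 knockout, 19.7 ± 2.08% in the Xbp1 knockout and 17.6 ± 1.05% in WT (SD, n = 5). Double knockout replicate 1 stood apart, at 10.3%, and its counts spread from its replicates by 32.6 to 52.4 times a Poisson spread. Xbp1 knockout replicate 5 stood apart in type I interferon genes, with a mean level of 6.35 on the log2 CPM scale over 27 genes against 2.58 to 3.01 in the other 4 Xbp1 knockout libraries. Results are given with and without these 2 libraries and the library labelled XBP1IEC-KO replicate 2, together called the 3 libraries that stand apart. Xist and Y-linked genes marked 1 of 5 mice as female in the double knockout, 3 in the Casp8 knockout, 3 in the Xbp1 knockout and 1 in WT. The share of females therefore moves along the interaction, by -80 percentage points. The 12 measured colon identity genes had mean levels of 8.06 to 8.52 in the double knockout and 8.16 to 8.24 in WT, and 5 of 15 small intestine and Paneth cell genes were measured.

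With both deletions together, 213 of 15458 genes tested departed from the sum of the separate log2 changes (1.38%), 110 above (0.712%) and 103 below (0.666%) the additive level. Genes below it included the sulfate transporter Slc26a2, the transglutaminase Tgm3, the ER sugar phosphate exchanger Slc37a2, the efflux pump Abcb1a and the adhesion protein Igsf9. Genes above it included the adenylate kinase Ak7, the vessel genes Cd93 and Gpihbp1, the matrix protein Spon1, the TNF receptor Tnfrsf1a, the inflammasome adaptor Pycard and the NF-kB subunit Rela. Each of the 20 libraries was left out in turn, and Tnfrsf1a, Pycard and Rela passed in 3, 5 and 17 of these fits. None of these 3 passed with the sex of the mice as a term. Of the 213 genes 73 departed by at least 2-fold, 28 above and 45 below. At an unadjusted p under 0.05 there were 2808 genes. The median interaction over all genes was 0.003. These counts are from the quasi-likelihood test of edgeR, where a gene was called if its p adjusted by Benjamini-Hochberg was under 0.05, as are all adjusted p-values below unless another tool is named, and values after ± are standard errors (SE) unless marked SD.

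**Figure D1:**
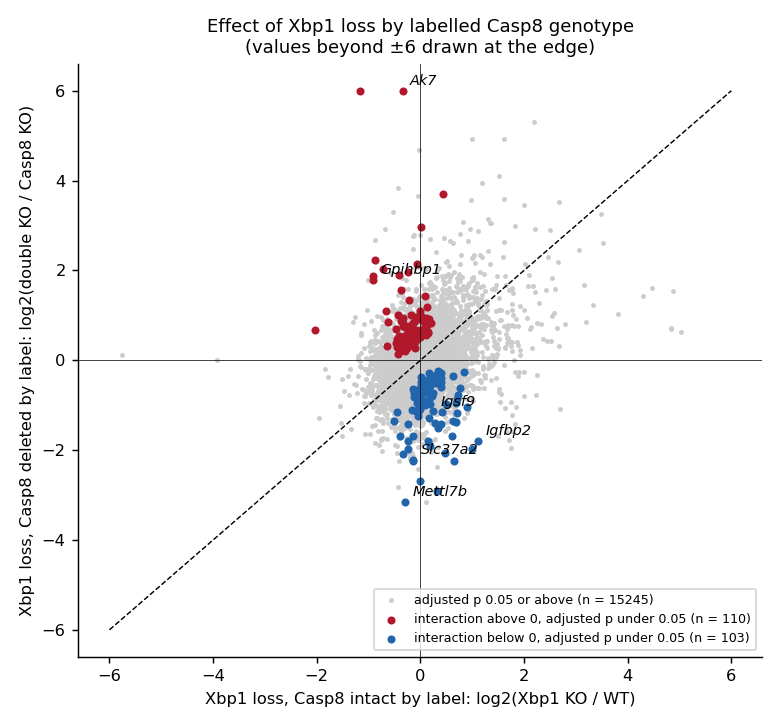
Each point is 1 of 15458 genes, with its log2 fold change of the Xbp1 knockout over WT on the horizontal axis and between the double knockout and the Casp8 knockout on the vertical axis. On the dashed line both are equal. The 110 genes with a called positive interaction are red, the 103 with a called negative one are blue. Of these, 100 rose and 96 fell between the double and the Casp8 knockout, and 0 of the 213 were called between the Xbp1 knockout and WT. Over all genes the shares were 9.68%, 8.71% and 0.0841%.

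How many genes were called depended on single libraries. Without double knockout replicates 1, 2, 3, 4 and 5 in turn the count was 58, 429, 420, 133 and 90. Without Casp8 knockout replicates 1 to 5 it was 47, 88, 112, 465 and 41. Without Xbp1 knockout replicates 1 to 5 it was 57, 92, 83, 59 and 137, and without WT replicates 1 to 5 it was 157, 80, 107, 96 and 60, so that of the 20 only the omission of WT replicate 1 kept the count of 213 within 1.5 times. The count was 17 without the 3 libraries that stand apart, 107 in a fit of only the 4 groups, 475 by DESeq2 and 411 by limma voom with quality weights. Of the 213 genes 202 passed by DESeq2 and 192 by limma voom, and 33 passed without each of the 20 libraries, 14 above and 19 below the additive level. Igsf9, Igfbp2, Tgm3, Slc26a2 and 5430427M07Rik, all below it, passed under every alternative planned.

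**Figure D2:**
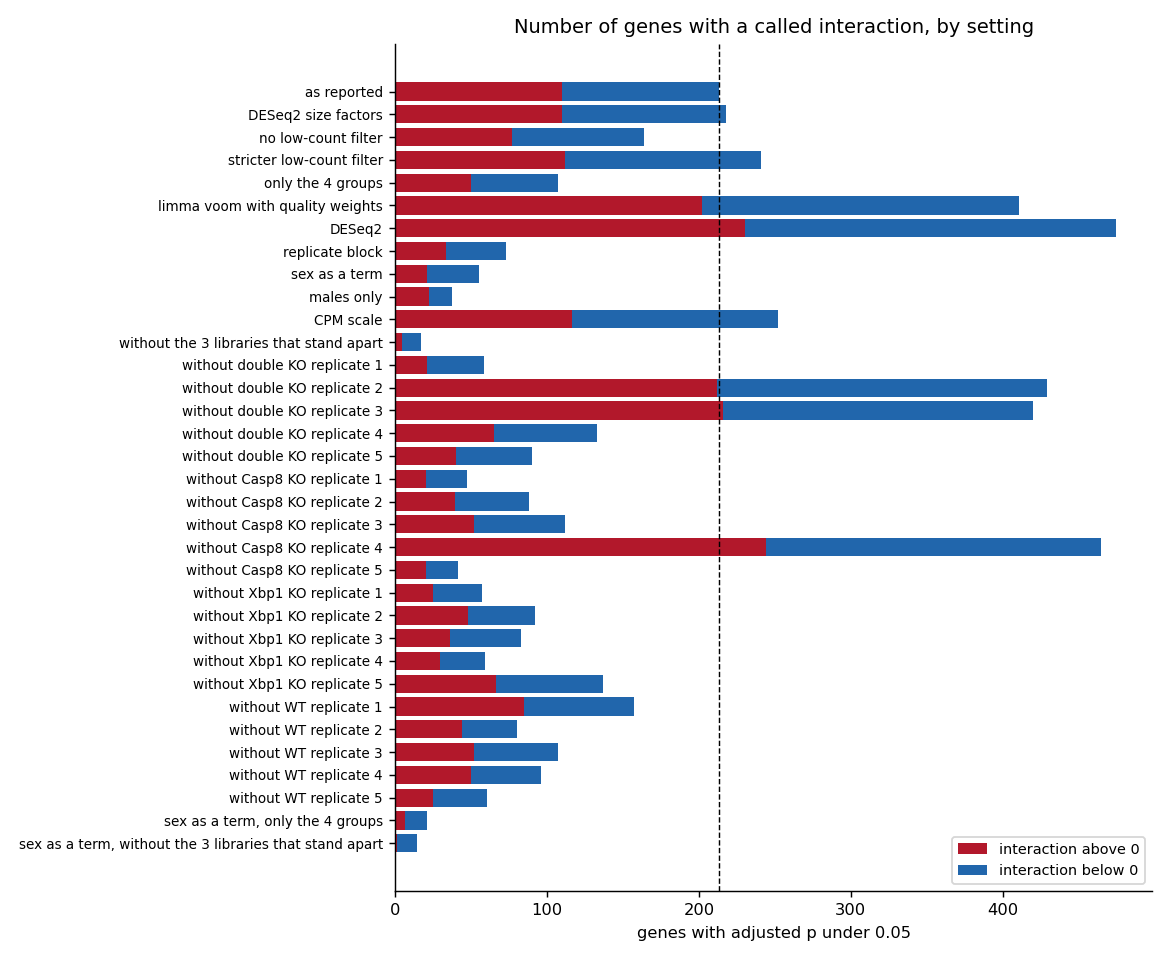
Number of genes with a called interaction (horizontal axis) under each setting (rows), split into those above 0 (red) and below 0 (blue). The dashed line marks the 213 genes as reported, and the counts run from 14 with sex as a term and without the 3 libraries that stand apart to 475 by DESeq2.

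Read as the loss of Xbp1, the factorial holds arms of very unequal size. Where Casp8 was deleted as well, 2842 genes differed between the double and the Casp8 knockout (18.4%), 1496 higher (9.68%) and 1346 lower (8.71%). Where Casp8 was intact by label, which the Casp8 level of the library labelled XBP1IEC-KO replicate 2 goes against, 13 differed between the Xbp1 knockout and WT (0.0841%), 9 higher (0.0582%) and 4 lower (0.0259%). That number was 22 when double knockout replicate 1 was left out. Omitting Xbp1 knockout replicates 1, 2, 4 or 5 gave 5, 6, 6 or 8, and omitting WT replicates 2, 3, 4 or 5 gave 4, 4, 2 or 2. DESeq2 gave 137 and limma voom 424 in place of 13. Read as the loss of Casp8, 1335 genes differed between the double and the Xbp1 knockout (8.64%; 4.77% higher, 3.86% lower) and 181 between the Casp8 knockout and WT (1.17%; 0.634% higher, 0.537% lower). Omitting double knockout replicates 1 or 4 gave 808 or 842 in place of 1335, and omitting Xbp1 knockout replicates 1 or 4 gave 822 or 748. In place of 181, omitting double knockout replicate 1 gave 332, Casp8 knockout replicates 3 or 4 gave 88 or 98, and WT replicates 2, 3 or 5 gave 94, 111 or 107. The double knockout differed from WT at 3291 genes (21.3%; 11.1% higher, 10.2% lower).

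Among the 213 genes, the double knockout mean lay above the other 3 groups in 98 and below them in 87. Among the genes left after these, both single knockouts lay below both WT and the double knockout in 12 and above both in 15. In 1 the order was another. Genes with both single knockouts below WT and the double knockout highest, such as Gpihbp1 and Cd93, are counted in the 98. Those with both above WT and the double knockout lowest, such as Igsf9 and Igfbp2, are counted in the 87. The largest class by tests against WT was the 92 genes for which neither the double nor a single knockout was called. For 79 genes the double knockout differed from WT and neither single knockout did, for 36 a single knockout differed and the double did not, and for 6 both did. Between the double and the Casp8 knockout 100 of the 110 upper genes rose and 96 of the 103 lower genes fell (9.68% and 8.71% of all genes did). Between the Xbp1 knockout and WT none of the 213 was called by edgeR, and 57 had an unadjusted p under 0.05. Of all genes 0.0841% were called there, so a count of 0 does not set the 213 apart. The share of all genes at that unadjusted p is not given here. The Casp8 knockout fell against WT in 19 of the upper genes and was higher in 23 of the lower ones (0.537% and 0.634% of all genes). These comparisons share libraries with the interaction, so the counts describe how each gene reached its value and are no separate evidence.

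Genes below the additive level are given first. The region from 250 bases before to 50 after the RefSeq transcription start is shown for 3, Igsf9, Mettl7b and Tgm3, and for Ak7. It is printed so that the sequence next to these genes can be read beside their values. Ak7 departed by the largest value of the genes named by rule. Ermap, named after its values were seen, departed by a larger one. The build is GRCm38.p6, the letters run 5′ to 3′ on the strand of the gene, and capitals mark the core of the unfolded protein response element that XBP1 binds (ACGTGG or, on the other strand, CCACGT). Igsf9 lies at chr1:172481963-172482262 on the plus strand, Mettl7b at chr10:128960939-128961238 on the minus strand, Tgm3 at chr2:130012090-130012389 on the plus strand and Ak7 at chr12:105705732-105706031 on the plus strand.
Igsf9: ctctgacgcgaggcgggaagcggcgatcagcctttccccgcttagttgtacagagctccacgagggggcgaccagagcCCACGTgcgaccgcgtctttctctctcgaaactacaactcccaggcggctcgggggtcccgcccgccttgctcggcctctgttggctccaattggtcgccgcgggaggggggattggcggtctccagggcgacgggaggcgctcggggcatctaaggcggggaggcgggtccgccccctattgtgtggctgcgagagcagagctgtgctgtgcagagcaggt
Mettl7b: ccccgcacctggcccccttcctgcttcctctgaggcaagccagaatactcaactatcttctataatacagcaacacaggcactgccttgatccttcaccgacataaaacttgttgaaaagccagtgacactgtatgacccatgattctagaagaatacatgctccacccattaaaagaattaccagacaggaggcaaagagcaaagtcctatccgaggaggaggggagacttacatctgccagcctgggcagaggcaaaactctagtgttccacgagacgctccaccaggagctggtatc
Tgm3: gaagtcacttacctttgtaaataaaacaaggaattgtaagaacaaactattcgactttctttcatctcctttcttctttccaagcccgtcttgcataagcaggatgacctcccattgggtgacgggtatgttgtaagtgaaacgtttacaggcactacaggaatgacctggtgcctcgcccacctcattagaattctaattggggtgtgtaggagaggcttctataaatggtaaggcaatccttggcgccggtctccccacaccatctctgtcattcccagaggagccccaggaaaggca
Ak7: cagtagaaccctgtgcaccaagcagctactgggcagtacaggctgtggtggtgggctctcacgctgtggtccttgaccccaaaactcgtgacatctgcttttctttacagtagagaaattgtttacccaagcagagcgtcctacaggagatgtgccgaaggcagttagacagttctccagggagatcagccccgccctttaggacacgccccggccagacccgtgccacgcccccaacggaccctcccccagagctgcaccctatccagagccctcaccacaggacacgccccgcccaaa

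Igsf9 (ENSMUSG00000037995, GRCm38 chr1:172481788-172498878), a cell adhesion protein of the immunoglobulin superfamily, stood at 72.4, 57.5, 86.5, 56.1 and 51.5 CPM in the double knockout and at 127, 149, 165, 127 and 144 CPM in the Casp8 knockout. The Xbp1 knockout held 82.1, 112, 84.3, 101 and 101 CPM, against 69.5, 91.5, 80.9, 78.8 and 84.8 in WT. All 5 Casp8 knockout libraries lay above all others, and the double knockout overlapped the Xbp1 knockout and WT. Additive log2 changes would place the double knockout at 168 CPM, against its mean of 64.8 ± 14.4 (SD, n = 5). The interaction was -1.37 ± 0.161 (adjusted p = 8.38e-06). It was made up of a fall of 1.13 between the double and the Casp8 knockout (adjusted p = 2.85e-07) and a difference of 0.24 between the Xbp1 knockout and WT (adjusted p = 0.352).

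Mettl7b (ENSMUSG00000025347, chr10:128958274-128960988), a methyltransferase of the ER and lipid droplets, was at 6.87, 7.67, 7.37, 2.47 and 3.64 CPM in the double knockout. It was at 63.3, 46.9, 54.8, 30.5 and 57.8 CPM in the Casp8 knockout, at 35.1, 48.2, 64.8, 46.9 and 17.1 in the Xbp1 knockout, against 35.7, 58.1, 46.7, 56.1 and 64 in WT. Every double knockout library lay below every library of the other 3 groups, which overlapped one another. The interaction was -2.86 ± 0.430 (adjusted p = 9.65e-04), and the call ended when the test was made on the CPM scale (adjusted p = 0.0720). Igfbp2 (chr1:72824503-72852474), which binds insulin-like growth factors, was at 5.72, 12.5, 7.57, 2.23 and 6.61 CPM in the double knockout, against 16.7, 36.5, 35.3, 7.89 and 22.5 in the Casp8 knockout. In the Xbp1 knockout it was at 37.8, 23.9, 27.1, 35.6 and 31.1 CPM, against 8.36, 12.8, 15.2, 25.4 and 9.62 in WT. Here both single knockouts averaged above WT and the double knockout below it, with overlaps except between the double and the Xbp1 knockout. The interaction of Igfbp2 was -2.91 ± 0.494 (adjusted p = 0.00507).

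Tgm3 (ENSMUSG00000027401, chr2:130012349-130050399), a transglutaminase that cross-links proteins, was at 552, 644, 507, 405 and 416 CPM in the double knockout and at 1956, 1605, 1889, 867 and 1854 in the Casp8 knockout. The Xbp1 knockout held 1273, 1497, 1283, 1238 and 1242 CPM, against 1494, 1171, 1268, 1475 and 1836 in WT. The double knockout libraries lay below all others, and the other 3 groups overlapped. The interaction was -1.55 ± 0.281 (adjusted p = 0.00969). Slc37a2, a sugar phosphate exchanger of the ER membrane, had a like order, with 39.4, 41.4, 51.8, 44.8 and 31.2 CPM in the double knockout, 266, 183, 209, 124 and 187 in the Casp8 knockout, 99.2, 143, 66.5, 195 and 210 in the Xbp1 knockout, against 137, 120, 168, 172 and 188 in WT. Its interaction was -2.08 ± 0.375 (adjusted p = 0.00969), and it did not pass without the 3 libraries that stand apart (-1.81, adjusted p = 0.0665).

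Slc26a2 (chr18:61192919-61211612), which carries sulfate into cells, was at 874, 933, 1075, 870 and 741 CPM in the double knockout, 1997, 1876, 2135, 1846 and 2137 in the Casp8 knockout, 1591, 1794, 1317, 1759 and 1098 in the Xbp1 knockout, against 1739, 1326, 1383, 1699 and 1674 in WT. The double knockout libraries were the 5 lowest and the Casp8 knockout libraries the 5 highest of the 20. The interaction was -1.10 ± 0.225 (adjusted p = 0.0171). Abcb1a, the drug efflux pump P-glycoprotein, averaged 216 ± 53.7 CPM in the double knockout, 428 ± 50.7 in the Casp8 knockout, 388 ± 82.7 in the Xbp1 knockout and 367 ± 49.3 in WT (SD, n = 5), with an interaction of -1.07 ± 0.205 (adjusted p = 0.0128). Slc39a5, a zinc importer, had an interaction of -0.89 ± 0.236 (adjusted p = 0.0493), a call that held without 3 of the 20 libraries and reached an adjusted p of 0.0987 without others.

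Further named genes below the additive level were Col4a5, a basement membrane collagen chain (-1.87 ± 0.356, adjusted p = 0.0128), Crybb3, a crystallin known from the lens (-1.94 ± 0.386, adjusted p = 0.0163), and Armc9, a protein of the base of cilia (-1.15 ± 0.215, adjusted p = 0.0122). Crybb3 averaged 4.93 ± 2.89 CPM in the double knockout, 16.8 ± 3.81 in the Casp8 knockout, 12.1 ± 4.22 in the Xbp1 knockout and 10.9 ± 1.07 in WT (SD, n = 5). Col4a5 averaged 3.21 ± 1.05 CPM in the double knockout, 7.32 ± 2.64 in the Casp8 knockout, 7.90 ± 1.95 in the Xbp1 knockout and 4.85 ± 0.818 in WT (SD, n = 5), so it rests on few reads. The transcript 5430427M07Rik, annotated as antisense and named here after its values were seen, was at 1.64, 6.65, 1.40, 0.989 and 2.28 CPM in the double knockout against 17.9, 23.2, 18.3, 13.2 and 21.6 in the Casp8 knockout. In the Xbp1 knockout it was at 11.7, 8.34, 7.87, 22.4 and 11 CPM, against 15.2, 5.93, 12.6, 7.22 and 7.54 in WT, with an interaction of -3.23 ± 0.546 (adjusted p = 0.00507). Whether the counting used strand is not stated in the sources used here, so these reads cannot be told apart from those of a gene on the other strand. Also named after their values were seen were the chloride channel Cftr (-0.68 ± 0.163, adjusted p = 0.0385), the phosphate carrier Slc20a1 (-1.10 ± 0.258, adjusted p = 0.0366) and the prolactin receptor Prlr (-1.75 ± 0.408, adjusted p = 0.0366). Their calls held without 9, 10 and 10 of the 20 libraries. With sex as a term Prlr passed (adjusted p = 0.0474), and Cftr (0.0918) and Slc20a1 (0.0611) did not.

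**Figure D3:**
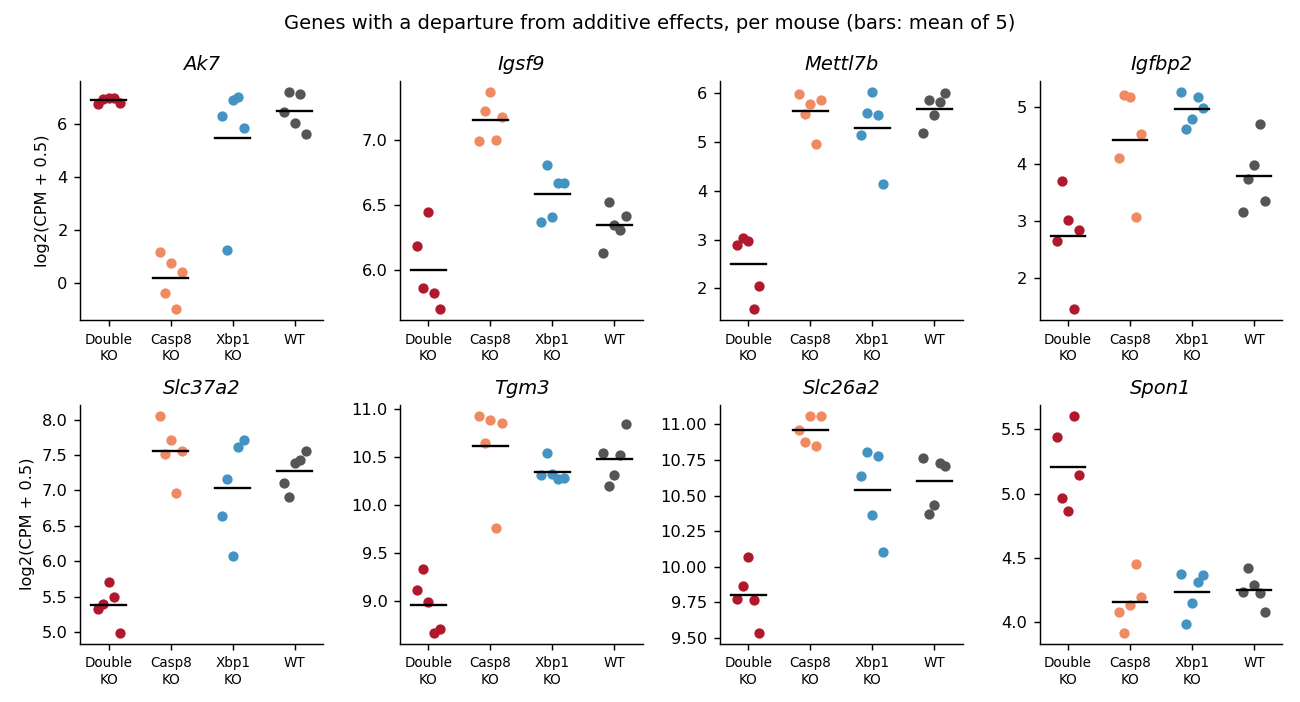
Level of 8 genes with a called interaction, in log2(CPM + 0.5), with 1 point per mouse and bars at the mean of 5. From left to right in each panel stand the double knockout, the Casp8 knockout, the Xbp1 knockout and WT, and in Mettl7b, Slc37a2, Tgm3 and Slc26a2 the double knockout lies below every other library.

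Ak7 (ENSMUSG00000041323, chr12:105705976-105782447), an adenylate kinase known from cilia and sperm tails, departed above the additive level in another way. It was at 110, 123, 128, 129 and 113 CPM in the double knockout and at 1.73, 0.261, 1.19, 0 and 0.822 in the Casp8 knockout, 0 to 6 reads per library. The Xbp1 knockout held 78.7, 1.85, 123, 130 and 58.3 CPM, against 89.4, 150, 66.7, 142 and 48.9 in WT. The Casp8 knockout libraries and the library labelled XBP1IEC-KO replicate 2, with 8 reads, were low and all other libraries high, the double knockout among them although it carries the same Casp8 deletion by label. The interaction was 7.55 ± 0.838 (adjusted p = 5.14e-06), 7.23 without that library and 8.15 by limma voom, where it did not pass (adjusted p = 0.0542). Of 206 other tested genes within 20 Mb of Ak7, a window chosen because Ak7 was called, 6 had a called interaction (2.91%), 5430427M07Rik among them. So did 7 of 227 around Casp8 (3.08%), Igfbp2 among them, and 1 of 136 around Xbp1 (0.735%), against 1.38% over all genes. Ermap, a membrane protein of red cell precursors named after its values were seen, was all or none within the Xbp1 knockout and WT. It had 384, 335, 398, 279 and 153 reads in the double knockout, 0, 1, 0, 0 and 0 in the Casp8 knockout, 303, 262, 0, 2 and 2 in the Xbp1 knockout, against 495, 240, 0, 0 and 519 in WT (interaction 10.8 ± 2.87, adjusted p = 0.0493). The Ermap call held without 4 of the 20 libraries.

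Of the genes of the mitochondrial genome, the called ones were transfer RNAs. The glutamine transfer RNA mt-Tq was at 89.3, 137, 94.8, 232 and 109 CPM in the double knockout, 35.1, 24, 28, 32.8 and 28.5 in the Casp8 knockout, 104, 114, 117, 88.6 and 65.4 in the Xbp1 knockout, against 146, 128, 62.3, 62 and 115 in WT. All 5 Casp8 knockout libraries lay below all others. The interaction was 2.22 ± 0.428 (adjusted p = 0.0128), a call that ended on the CPM scale (adjusted p = 0.109). The alanine transfer RNA mt-Ta passed at 2.79 ± 0.629 (adjusted p = 0.0288) with 12, 7, 8, 10 and 10 reads in the double knockout, 4, 1, 3, 0 and 2 in the Casp8 knockout, 10, 6, 8, 5 and 3 in the Xbp1 knockout, against 18, 16, 5, 6 and 14 in WT. Its call ended without Casp8 knockout replicates 2 and 5, Xbp1 knockout replicate 4 or WT replicates 2 and 5 (adjusted p = 0.0520 to 0.0571). With mt-Tc (3.25), mt-Ts2 (2.95) and mt-Te (2.70), named after their values were seen, 5 of the 24 tested mitochondrial genes were called (20.8%, against 1.38% over all genes). The calls of mt-Tc, mt-Ts2 and mt-Te held without 8, 7 and 10 of the 20 libraries. None of them passed with sex as a term (adjusted p = 0.104, 0.0567 and 0.0977). For mt-Te, WT replicates 1 and 2 stood at 188 and 252 CPM, against 28.5, 37.7 and 40.3 in the other WT libraries. For mt-Ts2 the Casp8 knockout averaged 0.632 ± 0.608 CPM (SD, n = 5), so it rests on few reads. The 7 measured members of the list of protein genes encoded in mitochondria had 0 calls and a median of -0.24, with mt-Nd2, a subunit of complex I, at -0.80 ± 0.296 (adjusted p = 0.144). These transfer RNAs are short and lie beside other mitochondrial transcripts, and whether their tags belong in part to neighbours was not tested.

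Spon1, a secreted matrix protein above the additive level, was at 43, 30.7, 28.7, 48.2 and 34.9 CPM in the double knockout, 16.4, 14.6, 17.1, 21.4 and 17.8 in the Casp8 knockout, 20.2, 15.3, 17.2, 19.3 and 20.1 in the Xbp1 knockout, against 18.3, 20.9, 19.1, 18.2 and 16.4 in WT. The double knockout lay above all others, which overlapped. Its interaction was 1.10 ± 0.212 (adjusted p = 0.0128), and 0.998 without the 3 libraries that stand apart (adjusted p = 0.0725). Gpihbp1, which holds lipoprotein lipase on capillaries, averaged 6.75 ± 2.17 CPM in the double knockout, 1.95 ± 0.791 in the Casp8 knockout, 2.43 ± 0.565 in the Xbp1 knockout and 4.59 ± 0.972 in WT (SD, n = 5; 2.71 ± 0.472, adjusted p = 0.00647). Both single knockouts were lower than WT in mean and the double knockout was not, an order also seen for Cd93, a receptor of endothelial and myeloid cells, at 44.7 ± 11.9, 26.9 ± 2.61, 32.3 ± 5.25 and 39.6 ± 5.37 CPM in the double, Casp8 and Xbp1 knockouts and WT (SD, n = 5; 1.04 ± 0.205, adjusted p = 0.0163). Without the 3 libraries that stand apart neither Gpihbp1 nor Cd93 passed (adjusted p = 0.0616 for each). Ms4a6d, a membrane protein of macrophages, had an interaction of 2.21 ± 0.474 (adjusted p = 0.0226). Of the endothelium list 1 of 12 measured members passed above and 0 below (median 0.31). That median was 0.114 with sex as a term and 0.115 without the 3 libraries that stand apart. The member that passed was Vwf, the clotting factor stored in endothelium (1.18 ± 0.281, adjusted p = 0.0385, which held without 10 of the 20 libraries and reached 0.0835 without others).

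Other named genes above the additive level were Mad2l2, a DNA repair factor (1.26 ± 0.259, adjusted p = 0.0171), Casp14, a caspase of skin barrier formation (1.77 ± 0.370, adjusted p = 0.0202), and Krt23, a keratin (1.93 ± 0.416, adjusted p = 0.0226). Casp14 was at 150, 24.6, 66.7, 84.6 and 113 CPM in the double knockout, 22.4, 50.3, 39.8, 43.8 and 48.5 in the Casp8 knockout, 39.5, 30.8, 47.6, 49.7 and 36.4 in the Xbp1 knockout, against 60.5, 71.3, 54.2, 60.1 and 77.5 in WT. The double knockout libraries of Casp14 ran from near the lowest to above the highest value of the other groups, and both single knockouts lay below WT in every library. The Krt23 call ended without double knockout replicate 1 (adjusted p = 0.0546) and Casp8 knockout replicate 1 (0.0508). Ldha, the lactate dehydrogenase of glycolysis (0.75 ± 0.169, adjusted p = 0.0281), Wars, the tryptophan transfer RNA synthetase (1.32 ± 0.339, adjusted p = 0.0469), and Stat3, a transcription factor of cytokine signalling (0.54 ± 0.140, adjusted p = 0.0487), passed as well and were named after their values were seen. The Ldha call held without 15 of the 20 libraries, and those of Wars and Stat3 without 3 each. None of them passed with sex as a term (adjusted p = 0.0809 to 0.104).

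Of the 58 genes measured in 3 lists of death and inflammatory signalling, 3 had a called interaction (5.17%, against 1.38% over all genes), and each of the 3 calls ended when some single libraries were left out. Of 21 necroptosis and death receptor genes 1 passed above and 0 below the additive level (median 0.18, against 0.00 over all genes), while 9 rose and 0 fell in the double knockout against WT. Of all genes 11.1% rose and 10.2% fell in that comparison. The one that passed was Tnfrsf1a, which encodes TNFR1, at 104, 81.8, 74.5, 112 and 107 CPM in the double knockout, 56.4, 56.3, 71.4, 76.6 and 60.8 in the Casp8 knockout, 71.9, 55.6, 65.9, 61.7 and 67.7 in the Xbp1 knockout, against 70.0, 70.4, 78.8, 66.6 and 65 in WT. The double knockout averaged highest, and its replicate 3 lay within the range of WT and the Casp8 knockout. Its interaction was 0.70 ± 0.184 (adjusted p = 0.0493), held without 3 of the 20 libraries and reached 0.102 without others. Ripk3 and Mlkl, the kinase and the effector of necroptosis, were not called (0.47, 95% interval -0.40 to 1.35, and -0.34, -1.56 to 0.88), nor was Zbp1, a sensor that activates RIPK3 (-0.20, -2.26 to 1.85). Ripk3 averaged 27.6 ± 5.68 CPM in the double knockout, 13.8 ± 5.25 in the Casp8 knockout, 11.9 ± 4.29 in the Xbp1 knockout and 8.35 ± 1.74 in WT (SD, n = 5). Tradd, an adaptor of TNFR1, had a value of 0.45 ± 0.170 (adjusted p = 0.155).

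Of 20 caspase and gasdermin genes 1 passed above and 0 below (median 0.13). Pycard, the adaptor of inflammasomes, was at 302, 268, 278, 240 and 261 CPM in the double knockout, 180, 193, 176, 180 and 151 in the Casp8 knockout, 212, 235, 200, 217 and 218 in the Xbp1 knockout, against 190, 168, 192, 190 and 235 in WT, with the double knockout above all others. Its interaction was 0.47 ± 0.122 (adjusted p = 0.0487), held without 5 of the 20 libraries and reached 0.0980 without others. Gsdmd, which forms pores in pyroptosis, had 1.0 ± 0.284 (adjusted p = 0.0647). Of 17 TNF and NF-kB targets 1 passed above and 0 below (median 0.33), and 12 rose and 0 fell in the double knockout against WT (11.1% and 10.2% over all genes). Rela, the NF-kB subunit p65, averaged 56.3 ± 5.87 CPM in the double knockout, 45.7 ± 5.81 in the Casp8 knockout, 41.9 ± 2.75 in the Xbp1 knockout and 52.4 ± 4.37 in WT (SD, n = 5; 0.62 ± 0.136, adjusted p = 0.0243). The Rela call ended without Casp8 knockout replicates 1 and 5 and Xbp1 knockout replicate 1 (adjusted p = 0.0511 to 0.0583). Tnf itself had an interaction of 0.03 with a 95% interval of -4.12 to 4.17, too wide to tell, at 13.6 ± 8.22 CPM in the double knockout, 4.20 ± 6.22 in the Casp8 knockout, 1.85 ± 1.50 in the Xbp1 knockout and 0.591 ± 0.666 in WT (SD, n = 5). Cxcl5, a neutrophil chemokine, had 1.69 ± 0.558 (adjusted p = 0.102).

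**Figure D4:**
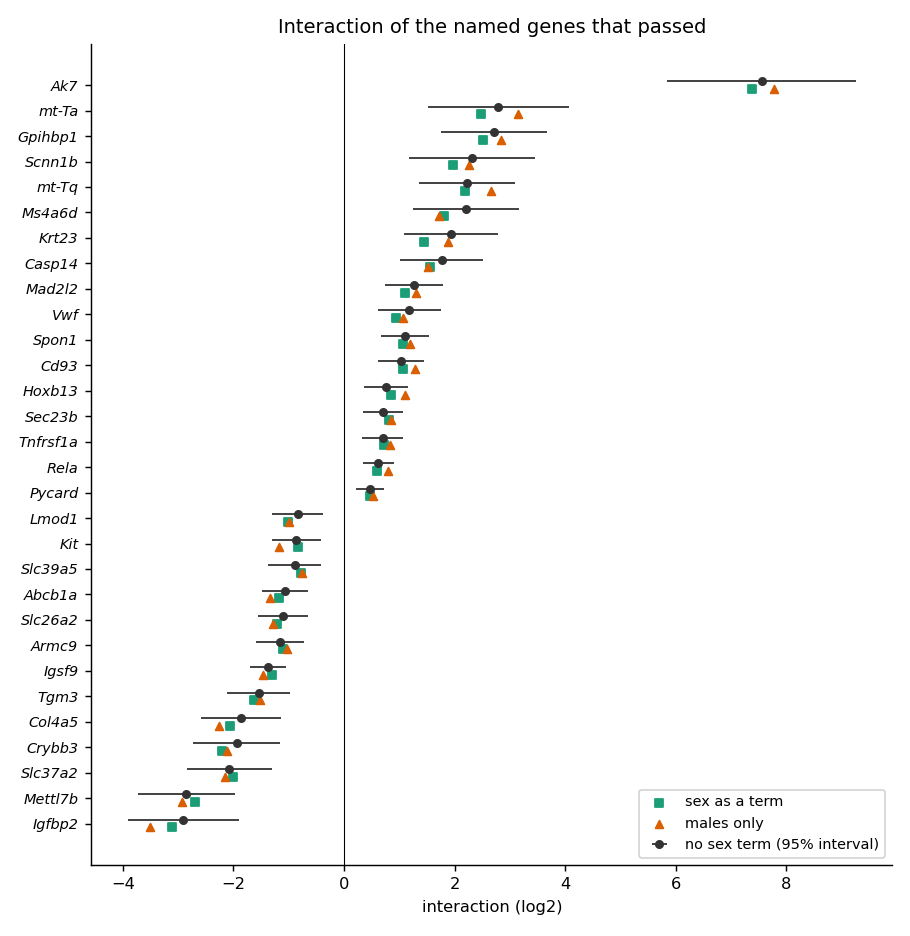
Interaction (log2, horizontal axis) of the 30 named genes with a call, with its 95% interval (black), its value with the sex of the mice as a term (green squares) and in males only (orange triangles). In all 30 genes the 3 values lie on the same side of 0. The genes were chosen for their call without a sex term, and the 3 fits share libraries, so this is no separate evidence.

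Of the 77 genes measured in 4 secretory and ER lists, 1 had a called interaction (1.3%), close to the 1.38% over all genes. Of 38 measured ER folding and export genes known as XBP1 targets 1 passed above and 0 below (median 0.06), and 11 rose and 0 fell in the double knockout against WT (11.1% and 10.2% over all genes). Sec23b, a subunit of the coat that buds vesicles from the ER, was at 44.3, 35.5, 40.8, 37.8 and 39.9 CPM in the double knockout, 23, 25.5, 34.9, 25.4 and 25.5 in the Casp8 knockout, 27.5, 35.2, 24.6, 27.8 and 32.9 in the Xbp1 knockout, against 33.9, 29.4, 34.7, 30.8 and 34.6 in WT. The double knockout lay above all others, by little in replicate 2. Its interaction was 0.70 ± 0.177 (adjusted p = 0.0469), held without 6 of the 20 libraries and reached 0.0963 without others. Outside the list, and named after their values were seen, Uggt1, which checks glycoprotein folding, lay below (-0.49 ± 0.129, adjusted p = 0.0493) and Stt3b, which attaches sugar chains, above (0.51 ± 0.109, adjusted p = 0.0226). The Uggt1 call held without 3 of the 20 libraries and the Stt3b call without 19. With sex as a term Stt3b passed (adjusted p = 0.0474) and Uggt1 did not (0.116). Edem2, of ER protein degradation, had -0.74 ± 0.202 (adjusted p = 0.0569). The 8 ER stress sensor genes had 0 calls (median 0.20), with Ern2, the epithelial relative of the kinase that splices Xbp1, at 0.34 ± 0.143 (adjusted p = 0.199). The 16 measured genes of the ATF4 integrated stress response had 0 calls (median 0.17), with Slc7a5, an amino acid carrier, at -1.46 ± 0.526 (adjusted p = 0.136).

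Muc2, the main mucin of the colon, fell with Xbp1 loss at both labelled Casp8 genotypes. It was at 663, 391, 766, 868 and 798 CPM in the double knockout, 1824, 1625, 1836, 1740 and 1468 in the Casp8 knockout, 431, 587, 493, 480 and 513 in the Xbp1 knockout, against 1597, 1765, 2010, 2003 and 2389 in WT. Libraries with the Xbp1 deletion lay below all libraries without it. The fall was 1.28 with Casp8 deleted (adjusted p = 6.72e-05) and 1.96 with Casp8 intact by label (adjusted p = 5.08e-07), and the difference of 0.68 ± 0.270 was not called (adjusted p = 0.174, 95% interval 0.13 to 1.23). Over the 16 goblet cell genes there were 0 calls and a median of 0.28. Clca1, a secreted goblet cell protein, had -0.69 ± 0.257 (adjusted p = 0.145) and averaged 587 ± 163 CPM in the double knockout, 929 ± 264 in the Casp8 knockout, 1178 ± 66.0 in the Xbp1 knockout and 1154 ± 106 in WT (SD, n = 5).

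Members of several immune lists rose in the double knockout, and 0 of the 131 genes measured in the interferon, antimicrobial, macrophage, plasma cell, T cell, B cell and neutrophil lists had a called interaction in edgeR. The share called over all genes was 1.38%, so a count of 0 does not set these lists apart. Over all 24 lists without a call, of 35, 67 of 330 genes had an unadjusted p under 0.05, and 6 passed by DESeq2 and 5 by limma voom. Over all genes tested 2808 of 15458 had such an unadjusted p, and 3.07% passed by DESeq2 and 2.66% by limma voom. Of 35 interferon gamma response and antigen presentation genes 0 passed in edgeR, DESeq2 or limma voom and 7 had an unadjusted p under 0.05, with 33 positive values and a median of 0.82 (0.54 to 1.20 without single libraries, 1.31 without the 3 that stand apart). Against WT 34 of the 35 rose in the double knockout (median 2.21), where 11.1% of all genes rose. In the Casp8 knockout (median 0.43) and the Xbp1 knockout (median 0.93) 0 of the 35 rose. Of all genes 0.634% and 0.0582% rose there, so a count of 0 does not set the list apart. Among the 35 genes Cd74, the invariant chain of MHC class II, was at 477, 146, 280, 840 and 483 CPM in the double knockout, 110, 69.8, 110, 166 and 117 in the Casp8 knockout, 70.9, 232, 126, 158 and 172 in the Xbp1 knockout, against 52, 53.6, 89.4, 52.9 and 96.5 in WT. Its double knockout libraries spanned a wide range, with replicate 2 within the range of the Xbp1 knockout. The interaction of Cd74 was 0.82 with a 95% interval of -0.24 to 1.87, and that of H2-Ab1, a class II chain, 0.77 (-0.14 to 1.68). Irf1 and Psmb10, a transcription factor and a proteasome subunit of this response, had 0.91 ± 0.315 (adjusted p = 0.121) and 0.98 ± 0.345 (adjusted p = 0.127).

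The 27 type I interferon genes had 0 calls and a median of -1.39, and that median depended on 1 library. Without Xbp1 knockout replicate 5 the median was 0.23, and without the 3 libraries that stand apart 0.44. Isg15, a ubiquitin-like protein induced by interferon, was at 21.9, 40.1, 5.18, 82.1 and 28.9 CPM in the double knockout, 17, 3.65, 43.4, 39.4 and 2.47 in the Casp8 knockout, 6.58, 4.63, 3.52, 5.89 and 322 in the Xbp1 knockout, against 1.32, 2.37, 2.07, 2.80 and 3.38 in WT. Xbp1 knockout replicate 5 held the highest value of the 20, and all WT libraries were low. Its interaction was -4.13 ± 1.98 (adjusted p = 0.264) and 2.46 in males only. Mx1, an antiviral GTPase, had -2.37 ± 1.40 (adjusted p = 0.379), and its sign turned in males only (0.99) and without the 3 libraries (0.345).

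In the double knockout against WT 11.1% of all genes were higher and 10.2% lower, beside which the counts against WT below stand. Of 18 epithelial antimicrobial and acute phase genes 0 passed (median 0.61, 14 higher and 2 lower in the double knockout against WT), with Serpina3n, a protease inhibitor, at 2.11 ± 0.580 (adjusted p = 0.0600) and Lcn2, which withholds iron from bacteria, at 2.80 ± 0.831 (adjusted p = 0.0733). The 18 monocyte and macrophage genes had 0 calls and a median of 0.66 (14 higher and 0 lower against WT), with Fcgr3, an antibody receptor, at 1.25 ± 0.386 (adjusted p = 0.0851) and C1qb, of complement, at 1.03 ± 0.343 (adjusted p = 0.105). The 13 plasma cell genes had 0 calls and a median of 0.80 (11 higher and 0 lower against WT), with Jchain, the joining chain of antibodies, at 1.17 ± 0.654 (adjusted p = 0.346). Of the T and NK cell list 8 of 20 genes were measured (median 0.51, 0 calls), with Lck, a T cell kinase, at 1.3 ± 0.707 and the chemokine Ccl5 at 1.73 ± 0.871 (adjusted p = 0.331 for Lck and 0.290 for Ccl5). Of the neutrophil list 4 of 17 were measured (median 3.18, 0 calls). S100a9, abundant in neutrophils, was at 13.6, 10.7, 8.96, 139 and 51.5 CPM in the double knockout, 0, 0.521, 0.237, 33.1 and 0.274 in the Casp8 knockout, 0, 1.16, 0, 0 and 0.457 in the Xbp1 knockout, against 0, 0, 0, 2.80 and 0.260 in WT. Casp8 knockout replicate 4 alone reached the range of the double knockout, and without Casp8 knockout replicate 4 the count of called interactions over all genes was 465, against 213. The 11 B cell genes had 0 calls and a median of -2.58, with Cr2, a complement receptor, at -3.19 ± 0.875 (adjusted p = 0.0597) and Ighd at -3.24 ± 1.01 (adjusted p = 0.0883). Cr2 averaged 4.97 ± 2.69 CPM in the double knockout, 15.7 ± 12.8 in the Casp8 knockout, 21.7 ± 10.9 in the Xbp1 knockout and 7.76 ± 8.07 in WT (SD, n = 5), and the part of lymphoid tissue caught in a sample was not tested. The eosinophil and mast cell list had 2 of 13 measured members. Kit, a receptor of mast cells and of the pacemaker cells of the gut, fell short of the additive level (-0.87 ± 0.218, adjusted p = 0.0453, held without 7 of the 20 libraries and up to 0.0963 without others), and Cma1, a mast cell protease, had 0.25 ± 0.674 (adjusted p = 0.877).

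**Figure D5:**
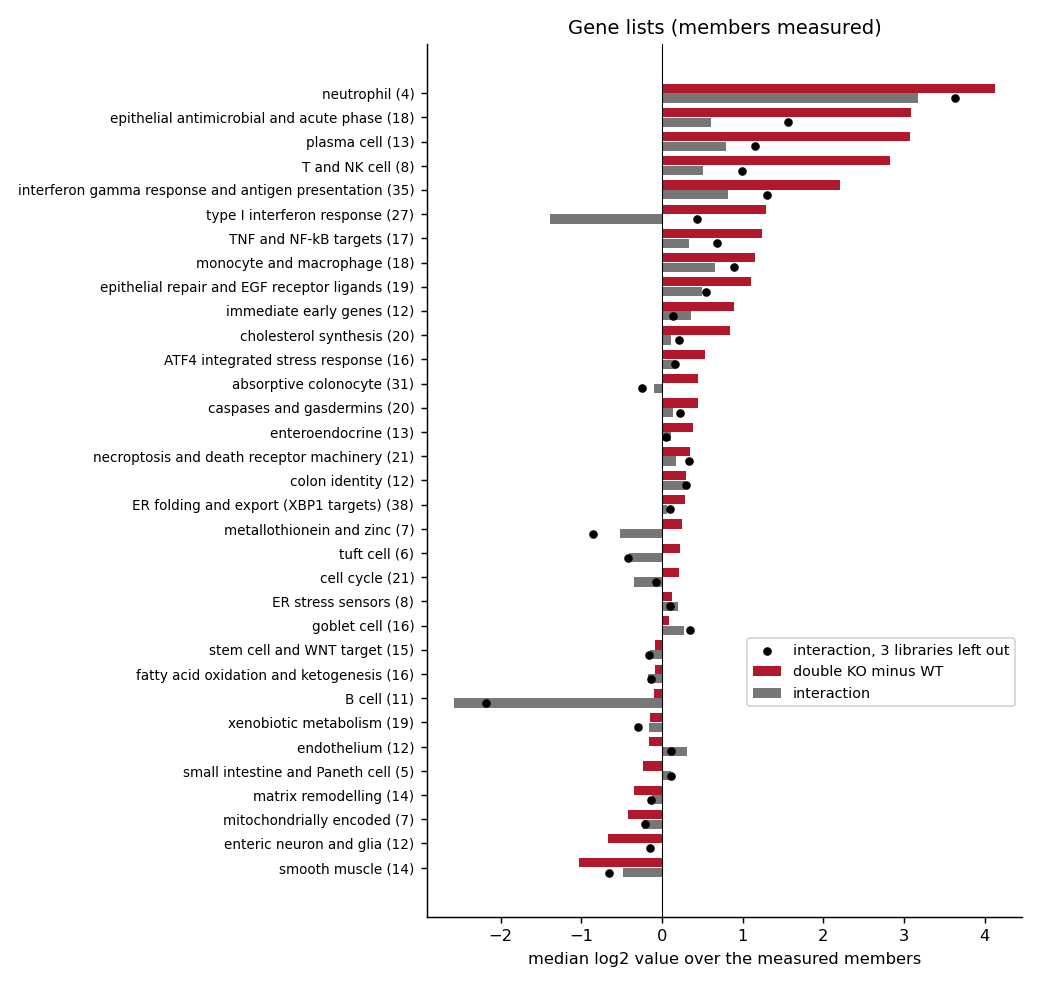
Median log2 value over the measured members of each list (number in parentheses), for the double knockout minus WT (red bars), the interaction (grey bars) and the interaction without the 3 libraries that stand apart (black points). The type I interferon list has its grey bar at -1.39 and its point at 0.44, and the red bar of all 14 smooth muscle genes is at -1.03.

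Among epithelial lists, the 31 absorptive colonocyte genes had 1 call above and 1 below (median -0.10). The upper one was Scnn1b, a subunit of the epithelial sodium channel, at 68, 9.46, 7.37, 43.3 and 30.8 CPM in the double knockout, 6.91, 5.47, 7.83, 7.89 and 14.8 in the Casp8 knockout, 13.6, 13.7, 14.3, 12 and 9.83 in the Xbp1 knockout, against 6.82, 18, 20.5, 13.1 and 26.8 in WT. Its double knockout libraries overlapped every group, and its interaction of 2.32 ± 0.557 (adjusted p = 0.0389) held without 6 of the 20 libraries and reached 0.0924 without others. The lower one was Mettl7b, described above. The 12 colon identity genes had 1 call above, Hoxb13, a homeobox gene of the hind part of the body (0.76 ± 0.197, adjusted p = 0.0482, held without 4 of the 20 libraries and up to 0.103 without others), 0 below and a median of 0.28, with the adhesion protein Cdh17 at 0.49 ± 0.183 (adjusted p = 0.152). Stem cell and WNT target genes (15 measured, median -0.15), cell cycle genes (21, median -0.35), epithelial repair genes and EGF receptor ligands (19, median 0.49) and enteroendocrine genes (13, median 0.11) had 0 calls each. Of the repair list 14 rose and 0 fell in the double knockout against WT (11.1% and 10.2% over all genes), with Emp1, a membrane protein, at an interaction of 0.77 ± 0.265 (adjusted p = 0.118) and Anxa1, which resolves inflammation, at 0.76 ± 0.301 (adjusted p = 0.173). Among the hormone genes Cck had 2.51 ± 0.689 (adjusted p = 0.0597) and Sct 1.08 ± 0.351 (adjusted p = 0.1). Tuft cell genes (6 of 12 measured, median -0.41), squamous genes (2 of 10, median -1.32) and small intestine and Paneth cell genes (5 of 15, median 0.11) had 0 calls.

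Of the 62 genes measured in 4 metabolic lists, 2 had a called interaction (3.23%, against 1.38% over all genes). The 20 cholesterol synthesis genes had 0 (median 0.11), while 16 rose and 0 fell in the double knockout against WT (11.1% and 10.2% over all genes). Insig1, which restrains that pathway, had -0.75 ± 0.387 (adjusted p = 0.299). The 16 fatty acid oxidation and ketogenesis genes had 0 calls (median -0.17), with Hadha at -0.40 ± 0.115 (adjusted p = 0.0675). The 19 xenobiotic metabolism genes had 1 below, Abcb1a, and 0 above (median -0.16). The 7 measured metallothionein and zinc genes had 1 below, Slc39a5, and 0 above (median -0.52). Mt1, a metallothionein, rose against WT in each of the 3 knockouts, and averaged 1370 ± 399 CPM in the double, 1129 ± 432 in the Casp8 and 1452 ± 309 in the Xbp1 knockout against 593 ± 110 in WT (SD, n = 5), with an interaction of -1.01 ± 0.290 (adjusted p = 0.0659). The 12 immediate early genes had 0 calls (median 0.36), with Jund at 0.76 ± 0.211 (adjusted p = 0.0608).

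Among the lists of the colon wall, all 14 smooth muscle genes fell in the double knockout against WT (median -1.03), where 10.2% of all genes fell. Of the 14, 1 passed below and 0 above the additive level (median -0.48). Lmod1, which starts actin filaments in smooth muscle, averaged 55.6 ± 10.8 CPM in the double knockout, 141 ± 27.8 in the Casp8 knockout, 82.8 ± 11.5 in the Xbp1 knockout and 117 ± 20.7 in WT (SD, n = 5; -0.84 ± 0.223, adjusted p = 0.0493). The Lmod1 call held without 2 of the 20 libraries and reached 0.102 without others. Des, the filament protein desmin, had -0.96 ± 0.281 (adjusted p = 0.0691), Myh11 -0.60 (95% interval -1.11 to -0.08) and Actg2 0.00 (-0.56 to 0.57). The mean level of the smooth muscle list lay between 7.94 and 8.65 in the double knockout, between 8.50 and 9.27 in the Casp8 knockout, between 8.58 and 9.26 in the Xbp1 knockout and between 9.11 and 9.55 in WT, on the log2 CPM scale. The part that the share of muscle in a sample takes in any interaction was not tested. The 12 enteric neuron and glia genes (median 0.01) and the 14 matrix remodelling genes (median -0.12) had 0 calls.

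The sex of the mice moves with the interaction, so it was taken into the fit as a term. The count of called genes was then 55 (0.356%), 21 above (0.136%) and 34 below (0.220%), and 49 of the 213 remained. All 213 kept their sign, and their median absolute interaction was 0.791 with the term and 0.814 without it. Between females and males 16 genes differed (0.104%), and 0 of these were among the 213. Of the 213 genes 55.9% had a female minus male difference of the sign opposite to their interaction, against 53.6% of all genes. In males only, with 4 double knockout, 2 Casp8 knockout, 2 Xbp1 knockout and 4 WT mice, 37 genes passed, 13 of the 213 among them, and all 213 kept their sign. The 213 were chosen in a fit that holds the same libraries, so a kept sign here or with the term is no separate evidence. The double knockout and WT held 1 female each, and no fit of females alone was made. Of the 30 named genes with a call, 17 passed with sex as a term, 10 without the 3 libraries that stand apart and 8 in males only. The 13 that did not pass with the term were Mad2l2, Casp14, Ms4a6d, Krt23, Rela, mt-Ta, Vwf, Scnn1b, Kit, Hoxb13, Pycard, Tnfrsf1a and Slc39a5, at adjusted p-values of 0.0626 to 0.129. The 10 that passed without the 3 libraries were Ak7, Igsf9, Mettl7b, Igfbp2, Tgm3, Armc9, Col4a5, Abcb1a, mt-Tq and Slc26a2. Igsf9 was -1.31 with the term and -1.46 in males only, Tgm3 -1.64 and -1.52, Ak7 7.39 and 7.77.

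The triple knockouts could be put in the place of the double knockout against the same Casp8 knockout, Xbp1 knockout and WT libraries, which the values below therefore share. With the TNFR1 triple knockout 18 genes were called (0.116%) and with the MLKL triple knockout 62 (0.401%), against 213 for the double knockout. Xist and Y-linked genes marked 4 of 5 mice as female in the TNFR1 and 5 of 5 in the MLKL triple knockout. In the double knockout it was 1 of 5, so the sex balance of the contrast changes as well. The part that sex takes in these counts was not tested. Igsf9 was -0.76 (adjusted p = 0.0357) with the TNFR1 and -0.94 (adjusted p = 0.00684) with the MLKL triple knockout, against -1.37 with the double. Mettl7b was -0.26 and -0.29 against -2.86, Slc37a2 -0.67 and -0.60 against -2.08, Tgm3 -0.40 and -0.52 against -1.55, and Spon1 0.34 and 0.28 against 1.10, none of these triple knockout values called. Ak7 was 7.42 and 7.71 against 7.55 and mt-Tq 2.36 (adjusted p = 0.0126) and 1.71 (adjusted p = 0.0631) against 2.22. Differences between the triple and the double knockouts themselves were not tested for these genes.

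Promoters were searched on both strands for 4 motifs in the 10747 tested genes with a RefSeq window, among them 77 of the called genes above and 78 of those below the additive level. The unfolded protein response core ACGTGG was in 15.6% of the upper and 20.5% of the lower windows, against 13% of all. The ER stress element, CCAAT and CCACG with 9 free bases between, was in 0 of both and in 0.14% of all. Its last 5 letters overlap the other strand of the core. The interferon-stimulated response element, GAAA and GAAA with any 2 bases between, was in 3.90% and 2.56%, against 3.74% of all. The gamma-activated site TTCNNNGAA was in 6.49% and 5.13%, against 8.10% of all. Of the 4 windows printed above, that of Igsf9 alone holds one of these motifs.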

How the data were processed

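Colon RNA of 30 mice was sequenced as 3′ tags (QuantSeq, per the labels' protocols). The authors deposited 1 table of estimated counts per gene, in which 11.2% of non-zero values are not whole. The submitters' processing notes name cutadapt 3.2, Subread, featureCounts 2.01, R 4.0.0 and the builds GRCm38 and mm10. Aligner settings and strand use are not stated there. Of 55579 features 92 were spike-ins with 0 reads, and 260 IDs without a symbol held 0.0190% of reads. The 20 libraries of the factorial held 3516792.6 to 5823059.7 reads.

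Rounding to whole numbers changed library totals by at most 0.00321%. Genes were kept by edgeR's filterByExpr (15458 tested), normalized by TMM and fitted in edgeR 4.0.16 (R 4.3.3) by the quasi-likelihood method, with 1 coefficient per genotype over all 30 libraries, so that the 6 groups share 1 estimate of the spread. P-values were adjusted by Benjamini-Hochberg over all tested genes, with a threshold of 0.05. CPM use TMM library sizes, and 1 read is about 0.233 CPM. On simulated counts of 15295 genes, 65 of 100 interactions of 1 log2 unit and 94 of 100 of 2 units were recovered. The changed genes were drawn from those above a floor of mean CPM, and no outlying library or sex effect was simulated. The shares recovered therefore need not hold for genes of few reads or for libraries that stand apart.

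Alternatives were DESeq2 1.42.0 and its size factors, limma 3.58.1 voom, other count filters, the 4 groups alone, the replicate number as a block, sex as a term, males only, the CPM scale, and leaving out each library or the 3 that stand apart. The combinations of the sex term with fewer libraries and the triple knockouts in place of the double were added after seeing the data. Named genes were Xbp1, Casp8 and Muc2, the 10 of smallest interaction p in each direction among called genes with at least 1 log2 unit (without antigen receptor segments, Xist, Y-linked genes and genes known by a clone or model number), and the 2 of smallest p in each list, 88 in all, 30 of them called. The genotypes, gene lists and tests were chosen with earlier results of these data known.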

Additional observations from a re-analysis of the deposited data

Results flagged for a closer look

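In 30 of the 88 named genes the effect of Xbp1 loss differed between the labelled Casp8 genotypes, by edgeR's test of the interaction itself at an adjusted p under 0.05. The named genes other than Xbp1, Casp8 and Muc2 were chosen by a small p in this same test. The count of 30 is therefore no share to set against the 1.38% called over all genes. The values are on the log2 scale. Above the additive level were Ak7 (7.55), mt-Ta (2.79), Gpihbp1 (2.71), Scnn1b (2.32), mt-Tq (2.22), Ms4a6d (2.21), Krt23 (1.93), Casp14 (1.77), Mad2l2 (1.26), Vwf (1.18), Spon1 (1.10), Cd93 (1.04), Hoxb13 (0.76), Sec23b (0.70), Tnfrsf1a (0.70), Rela (0.62) and Pycard (0.47). Below it were Igfbp2 (-2.91), Mettl7b (-2.86), Slc37a2 (-2.08), Crybb3 (-1.94), Col4a5 (-1.87), Tgm3 (-1.55), Igsf9 (-1.37), Armc9 (-1.15), Slc26a2 (-1.10), Abcb1a (-1.07), Slc39a5 (-0.89), Kit (-0.87) and Lmod1 (-0.84).

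In 24 of 352 groups of 5 libraries, 1 library lay far from the other 4 by Dixon's test on log2(CPM + 0.5), where chance alone gives about 1 in 20. In the double knockout these were Hoxb13 (601 CPM) and Tradd (176 CPM) in replicate 1, and Lmod1 (74.4 CPM) and Igkc, the antibody light chain (711 CPM), in replicate 2.

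In the Casp8 knockout they were Casp14 (22.4 CPM) and Avil, a tuft cell actin-binding protein (5.76 CPM), in replicate 1, Slc7a5 (0.781 CPM) in replicate 2 and Sec23b (34.9 CPM) in replicate 3. Replicate 4 had 4, Tgm3 (867 CPM), Lmod1 (93.9 CPM), Xbp1 (149 CPM) and S100a9 (33.1 CPM), and replicate 5 had Mx1 (0.822 CPM).

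In the Xbp1 knockout they were Ak7 (1.85 CPM) and Tgm3 (1500 CPM, to 3 digits) in the library labelled XBP1IEC-KO replicate 2, Cd93 (23.6 CPM) in replicate 4, and Isg15 (322 CPM), Birc5, a mitosis gene (94.2 CPM), and Xbp1 (65.2 CPM) in replicate 5. In WT they were Vwf (17.3 CPM) in replicate 2, Insig1 (6.67 CPM) in replicate 3, S100a9 (2.80 CPM) and Casp8 (58.7 CPM) in replicate 4 and Anxa1 (40.3 CPM) in replicate 5.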

How the results depend on the processing

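The count of 213 called interactions (110 above, 103 below 0) was 218 with DESeq2 size factors, 164 without the count filter, 241 with a stricter filter and 252 on the CPM scale. It was 107 (50 above, 57 below) in a fit of the 4 groups, 411 (202 and 209) by limma voom and 475 (230 and 245) by DESeq2. With sex as a term it was 55 (21 and 34), in males only 37 (22 and 15), without the 3 libraries that stand apart 17 (4 and 13), with the sex term in the 4 groups 21 (6 and 15) and with the sex term without the 3 libraries 14 (1 and 13). Leaving out single libraries gave 41 to 465 calls, 20 to 244 above and 21 to 221 below 0. The cause of these shifts was not tested. Males only and the fits without libraries hold fewer mice.

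Between the double and the Casp8 knockout (2842), single omissions gave 2002 to 3243 and males only 1295. Between the Xbp1 knockout and WT (13), single omissions gave 2 to 22. There the count was 28 without a filter, 48 in the 4 groups, 424 by voom, 137 by DESeq2, 8 with sex, 2 in males, 49 on the CPM scale, 7 without the 3 libraries and 6 with sex and without them. Between the double and the Xbp1 knockout (1335), single omissions gave 748 to 1681, males only 739 and omission of the 3 libraries 842. Between the Casp8 knockout and WT (181), single omissions gave 88 to 332. There the count was 505 by voom, 356 by DESeq2, 101 with sex, 25 in males, 298 on the CPM scale, 318 without the 3 libraries and 80 with sex in the 4 groups.

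Nothing in the labels says that replicate numbers pair the mice. The deviations of same-numbered libraries had a median correlation of 0.051 (-0.399 to 0.369) over 30 pairs, 14 of them over 0.1, against -0.031 (-0.471 to 0.479) over 120 pairs of other numbers, 29 of them over 0.1. Of 20 libraries, 6 correlated best with their own number. These values cannot exclude a pairing, and the mice were not treated as paired because the labels give none. With the replicate number as a block 73 interactions were called (33 above, 40 below), 72 of the 213 among them and 21 of the 30 named calls, and 2659, 9, 1175 and 154 genes in the 4 arms in the order above.

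Signs turned only in named genes without a call. Wnt8b was 1.61 CPM on the CPM scale. Isg15 was 2.46 in males and 0.53 with sex and without the 3 libraries. Apoa1 was -0.31 in males and -0.14 to 5.26 without single libraries, the lowest without WT replicate 3. Mx1 was 0.99 in males, 0.345 without the 3 libraries and 0.25 with sex as well. Cma1 was -0.11 to 0.61 without single libraries, below 0 without double knockout replicate 3 (-0.11) and WT replicate 4 (-0.0002). Genes of few reads, such as mt-Ta at 0 to 18 reads per library, have wide intervals at this depth.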
